A study of Rattus norvegicus with 30 samples.

Results

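In cultured rat hepatocytes, 10 genes whose mRNA signal was strongly lower after clofibrate were examined. They are Npy, which encodes the secreted peptide neuropeptide Y, Gpc4, a cell-surface glypican, Lurap1l, a leucine-rich adaptor-like protein, Hao2, a peroxisomal 2-hydroxy acid oxidase, Rab11fip5, an effector of Rab11 on recycling endosomes, Abca8a, an ABC transporter of subfamily A, Fam149a, a protein with no settled function, Slc17a2, an organic anion and phosphate transporter, Phf19, an accessory subunit of Polycomb repressive complex 2, and Map2k6, a kinase that activates p38 MAP kinase. They were chosen from these same arrays. Of the 10, 9 are among the 10 largest falls of at least 1 of the 4 comparisons with DMSO, counted over genes that passed the test with all 5 treated arrays below all 5 DMSO arrays and had more than a provisional symbol. The other, Map2k6, had the largest fall of the 10 genes from 60 to 1000 uM at 24 h, a log2 difference of -2.01. The differences from DMSO below are therefore a description with their standard errors, and no p-value is given for them. Where one of these differences is said to pass or not, this only places it against limma's adjusted p of 0.05, which the choice itself used, and supports nothing. Among the 14217 genes that the arrays name, the 10 genes have 11 probe sets of 31042, since Fam149a has 2. Each gene is given by its brightest probe set. All 11 were bright enough for the filter on low signal, which left out the dimmest 40% of probe sets by mean log2.

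The cells were primary hepatocytes of male Sprague Dawley rats, thawed from frozen stock, plated on collagen under Matrigel and dosed on day 3 of culture. Clofibrate is a fibrate drug whose acid form activates the nuclear receptor PPAR-alpha and which makes peroxisomes multiply in rodent liver. The 6 groups received vehicle labelled 1% DMSO, 60 uM clofibrate or 1000 uM clofibrate for 24 or 48 h, and the dosing solutions of the drug were made in 1% DMSO as well. Each group has 5 arrays, from 5 separate culture wells. No source used here gives the age or the number of the animals behind the wells, so the spread measured is that between cultures.

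A gene's RNA level is given as the MAS5 signal, a linear brightness that the authors scaled so that every array has the same trimmed mean of 1501, and differences are given on the log2 scale, where -1 means a signal 2-fold lower. In such an array of whole cultures, fewer cells of a type and less RNA per cell cannot be told apart. Arrays of a group correlated at 0.929 to 0.950, and no array's values were identical to another's. The DMSO array of replicate 1 at 48 h scattered more about its group means (a residual SD of 0.336, against 0.243 to 0.297 in the other 29). The summed signal of 7 hepatocyte markers averaged 505681 in DMSO and 422920 at 1000 uM at 24 h, and 463266 and 361705 at 48 h. The markers were not alike. At 48 h albumin (Alb) averaged 84568 in DMSO and 83983 at 1000 uM, Ttr 68306 and 67687, and Apoa1 68040 and 65155. Larger differences at 48 h were those of Ahsg (67563 and 28580.5), Fgb (77479 and 43741), Serpina1 (76754 and 64282) and Tat (20556 and 8276). Of the 7, 6 passed as lower by limma's test at 24 h and 4 at 48 h, beside 20.5% and 26.8% of all named genes. As deposited, the summed hepatocyte markers were thus lower at 1000 uM too. The summed signal of 4 bile duct markers, 1 of them above the filter, was also lower, from 10668 in DMSO to 7890 at 1000 uM at 24 h and from 13974 to 10247 at 48 h, with no overlap of these groups. That sum is nearly all Epcam, the marker above the filter, which averaged 10262 and 7551 at 24 h. It therefore describes mainly 1 gene. Of the markers not above the filter, Krt19 went from 190 to 108 at 24 h and from 278 to 84.4 at 48 h. Cftr went from 200 to 211 and from 188 to 159, and Krt7 from 15.1 to 20.5 and from 31.1 to 22.2. The sums of Kupffer, sinusoidal endothelial and stellate cell markers overlapped between DMSO and 1000 uM at both times. Most of the Kupffer sum is Cd14, with 15930 of 20743 in DMSO at 24 h. By limma 1 of 6 Kupffer markers above the filter was lower at 48 h, and 1 of 4 stellate markers at each time. Of 4 endothelial markers 1 was higher at 48 h. The Kupffer marker C1qb averaged 360 and 112 at 48 h, and the stellate marker Acta2 1302 and 894 at 24 h and 1399 and 994 at 48 h. The ratio of 3′ to 5′ probe sets for beta-actin, a measure of RNA quality, averaged 2.42 ± 0.14 (SD, n = 5) in DMSO and 2.56 ± 0.15 at 1000 uM at 24 h, and 2.33 ± 0.15 and 2.48 ± 0.17 at 48 h. The part of the marker sums and of this ratio in the results below was not tested. Over all probe sets tested, 3241 were lower and 2144 higher at 1000 uM at 24 h, and 4219 and 2835 at 48 h. When each array was scaled to its poly-A control probe sets (poly-A scaling) in place of the trimmed mean, these became 903 lower and 4404 higher at 24 h and 1863 and 3693 at 48 h. The median of all probe sets moved from -0.05 to 0.18 at 24 h and from -0.04 to 0.11 at 48 h, and in DMSO from 24 to 48 h it moved from -0.01 to 0.16. The marker sums and counts above are as deposited only, and how they change with poly-A scaling was not tested.

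The genes differ in role. Neuropeptide Y is made mainly by neurons, where it is cut from a precursor, amidated and released, and is best known for raising food intake and narrowing blood vessels. Glypicans carry heparan sulfate chains on a lipid anchor and present growth factors to their receptors. Hao2 belongs to the flavin enzymes of the peroxisome, which make hydrogen peroxide. Rab11 and its effectors return membrane proteins from endosomes to the cell surface, in hepatocytes to the bile canaliculus among others. Phf19 helps bring the Polycomb complex that methylates histone H3 to chromatin, and Map2k6 relays stress signals by phosphorylating p38.

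Promoters of 8 of the 10 genes matched the RefSeq table for rat, build GRCr8. Those of the 5 genes that passed as lower at both doses and both times are printed here, since they share that pattern and it can be asked whether they share letters. Each run holds the 250 bases before the start of the gene, read 5′ to 3′ on the gene's own strand. Capitals mark every match, on either strand, to 6 motifs: the nuclear receptor half-site AGGTCA, the AP-1 site TGANTCA, the TEAD site CATTCC, the CCAAT box, the TATA box TATAAA and the GC box GGGCGG.
Npy (chr4:80211861-80212110, plus strand): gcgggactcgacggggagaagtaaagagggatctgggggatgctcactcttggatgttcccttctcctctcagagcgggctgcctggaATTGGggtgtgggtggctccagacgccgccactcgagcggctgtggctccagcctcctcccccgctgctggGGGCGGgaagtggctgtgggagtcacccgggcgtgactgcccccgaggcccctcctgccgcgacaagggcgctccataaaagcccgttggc
Gpc4 (chrX:136676058-136676307, minus strand): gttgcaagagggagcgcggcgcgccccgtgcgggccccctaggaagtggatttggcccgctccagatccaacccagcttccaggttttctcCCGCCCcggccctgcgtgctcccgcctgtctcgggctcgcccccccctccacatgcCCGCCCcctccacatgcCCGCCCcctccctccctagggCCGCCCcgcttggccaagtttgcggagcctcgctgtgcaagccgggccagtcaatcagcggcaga
Lurap1l (chr5:100407790-100408039, plus strand): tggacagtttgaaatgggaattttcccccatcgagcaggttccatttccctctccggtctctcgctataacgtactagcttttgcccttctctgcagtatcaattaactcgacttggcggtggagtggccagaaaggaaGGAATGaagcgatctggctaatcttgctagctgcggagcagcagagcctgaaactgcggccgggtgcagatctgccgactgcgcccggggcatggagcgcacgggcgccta
Hao2 (chr2:188913134-188913383, minus strand): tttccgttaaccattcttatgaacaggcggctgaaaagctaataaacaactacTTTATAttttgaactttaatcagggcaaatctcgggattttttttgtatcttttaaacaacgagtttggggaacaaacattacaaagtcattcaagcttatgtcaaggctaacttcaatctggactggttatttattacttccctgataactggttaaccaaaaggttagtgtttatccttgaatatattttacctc
Rab11fip5 (chr4:119466214-119466463, minus strand): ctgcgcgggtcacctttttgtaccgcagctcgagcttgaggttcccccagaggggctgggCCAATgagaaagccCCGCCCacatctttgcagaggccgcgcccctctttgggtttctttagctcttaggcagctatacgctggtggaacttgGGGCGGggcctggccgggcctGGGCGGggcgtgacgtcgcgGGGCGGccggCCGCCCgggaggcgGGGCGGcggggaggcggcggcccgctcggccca

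These 5 windows differ in base composition. The GC content is 67.6% for Npy, 71.6% for Gpc4 and 71.6% for Rab11fip5, but 56.0% for Lurap1l and 33.2% for Hao2, where the median of all 33469 promoters is 51.2%. GC boxes, which 30.5% of all promoters hold, are present in Npy, Gpc4 and Rab11fip5, with 6 matches in Rab11fip5 alone. A CCAAT box, held by 34.0% of promoters, lies in Npy and Rab11fip5. Hao2 has 1 TATA box match on the opposite strand and Lurap1l has 1 TEAD match, motifs held by 12.9% and 12.1% of promoters. No AP-1 match was found in the 8 windows, and the only nuclear receptor half-site, a motif in 14.1% of promoters, lies in that of Fam149a. Among the remaining windows, Phf19 has GC boxes and Map2k6 and Fam149a a CCAAT box. A match is a description of the letters only.

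**Figure D1:**
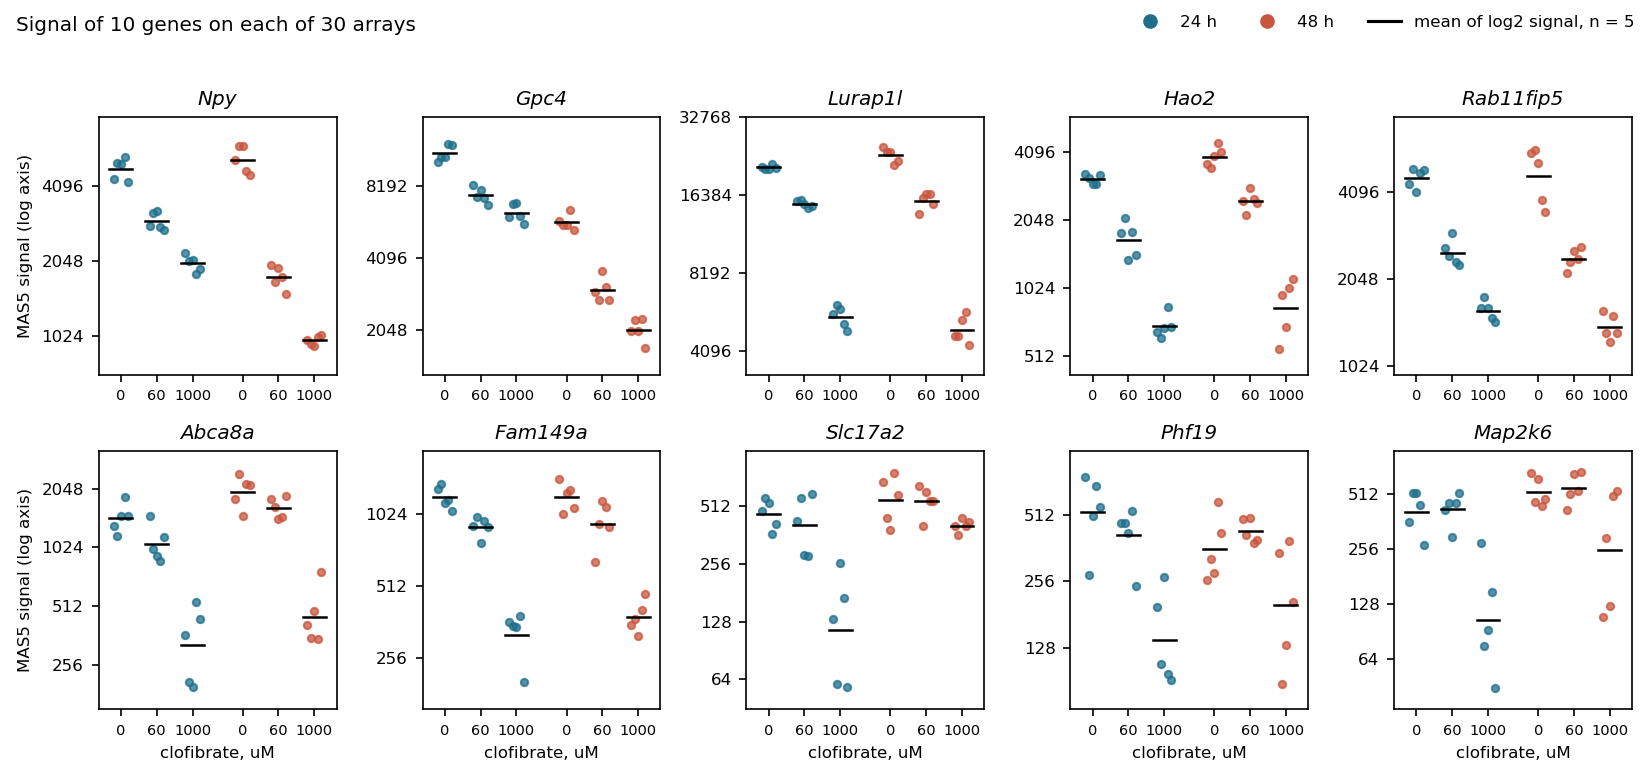
MAS5 signal (log axis, base 2) of the 10 genes on each of the 30 arrays by clofibrate dose in uM (0 is DMSO), with 24 h in blue and 48 h in red; bars are the means of log2 signal of 5 arrays. The upper 5 genes step down at 60 uM and again at 1000 uM, and the lower 5 are mostly lower at 1000 uM, with arrays far apart for the 3 dimmest.

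Levels spanned a wide range. By mean log2 signal over the 30 arrays, Lurap1l stood at the 96.0th percentile of all probe sets, Gpc4 at the 90.7th, Rab11fip5 at the 83.6th, Npy at the 83.3rd and Hao2 at the 78.3rd. Abca8a at the 68.1st and Fam149a at the 63.2nd were intermediate, while Slc17a2 at the 48.7th, Map2k6 at the 45.9th and Phf19 at the 44.5th lay near the filter. Different probe sets bind with different strength, so this order is one of brightness and not of RNA amount. In DMSO at 24 h the coefficient of variation between wells was 2.1% for Lurap1l, the brightest, and 33.8% for Phf19.

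At 60 uM, 5 of the 10 genes passed as lower at 24 h, where 3.76% of all named genes did, and 5 at 48 h, where 5.79% did. At 1000 uM, 10 passed as lower at 24 h, beside 20.5% of all genes, and 8 at 48 h, beside 26.8%. The genes were chosen on these contrasts, so the counts are given only to describe them. The median difference of the 10 genes was -0.45 and -1.92 at 24 h and -0.48 and -1.71 at 48 h for 60 and 1000 uM, where the medians of all genes were -0.02, -0.06, -0.01 and -0.06. All 5 treated arrays lay below all 5 DMSO arrays for 6 and 9 genes at 24 h, which held for 4.05% and 15.0% of all genes, and for 5 and 7 genes at 48 h, beside 5.02% and 19.0%. The members nearest the choice limit differed little from genes just outside it: Fam149a, last of the 10 largest at 1000 uM at 24 h with -1.92, was followed by Cxcl1 with -1.91, and Rab11fip5, last at 60 uM at 24 h with -0.87, by Steap4 with -0.86.

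**Figure D2:**
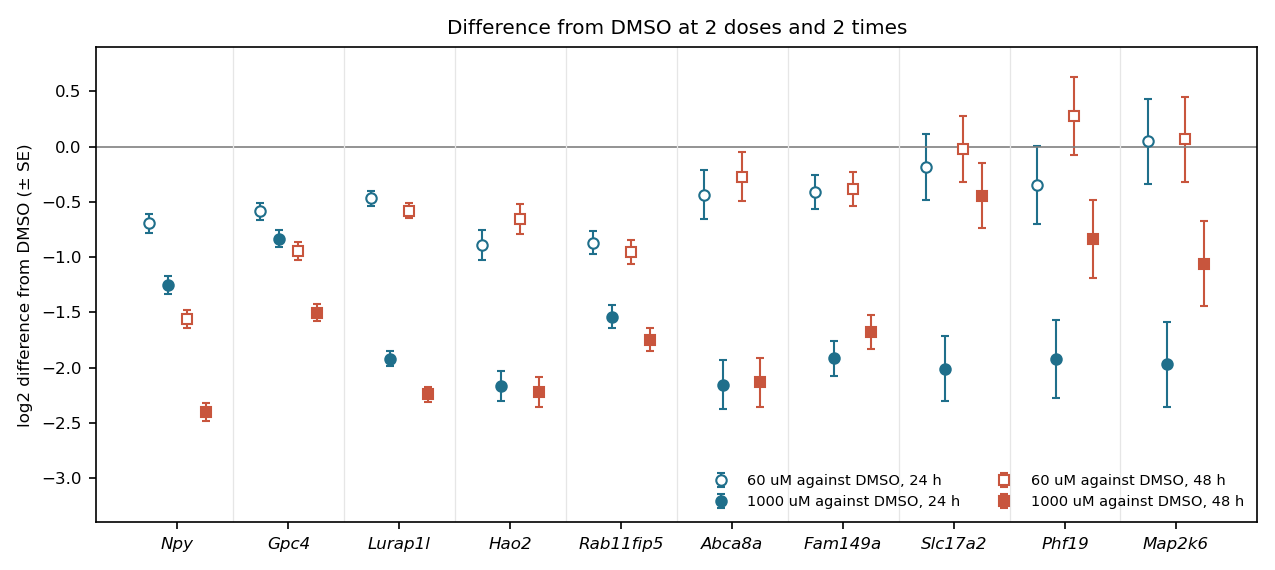
Log2 difference from DMSO with its standard error (5 arrays a group) for the 10 genes at 60 uM (open) and 1000 uM (filled) after 24 h (circles) and 48 h (squares). Npy, Gpc4, Lurap1l, Hao2 and Rab11fip5 lie below 0 in all 4, while Slc17a2, Phf19 and Map2k6 lie between -0.35 and 0.28 at 60 uM.

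Npy had the largest fall of the 10 at 1000 uM and 48 h, and its difference from DMSO grew with both dose and time. At 24 h its signal (probe set 1387154_at) was 4217, 4357, 4974, 5036 and 5344 in DMSO, 2719, 2803, 2820.0, 3172 and 3247 at 60 uM, and 1807, 1905, 2051, 2074 and 2202 at 1000 uM. At 48 h it was 4509, 4683, 5163, 5886 and 5905 in DMSO, 1513, 1692, 1773, 1913 and 1970.1 at 60 uM, and 934, 952, 992, 1017 and 1036 at 1000 uM. The 3 doses did not overlap at either time, and the highest array at 1000 uM and 48 h lay below every other group. On the log2 scale Npy differed from DMSO by -0.69 at 60 uM and -1.25 at 1000 uM at 24 h, and by -1.56 and -2.40 at 48 h, each ± 0.08 (SE, n = 5). The last is a signal 5.27-fold lower than in DMSO, 986 ± 42.7 against 5229 ± 654 (mean ± SD). Of 8 neuron and neuroendocrine markers on the array, 3 were above the filter, and chromogranin A (Chga) lay under the background floor, which is the brightest control probe set for a bacterial trp RNA on an array, on all 30 arrays. The summed signal of the 8 ranged from 1484 to 2693 on the DMSO arrays at 48 h and from 1878 to 2772 at 1000 uM.

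At 24 h Gpc4 was the gene that most nearly reached its 1000 uM difference at 60 uM, and its level in DMSO also dropped with time. After 24 h the arrays (1392888_at) read 10412, 10869, 10883, 12183 and 12310.3 in DMSO, 6808, 7353, 7421, 7899.6 and 8272 at 60 uM, and 5710.2, 6117, 6145, 6894 and 6947 at 1000 uM. After 48 h they read 5377, 5619.9, 5641, 5840.3 and 6497 in DMSO, 2727, 2730.3, 2943, 3088 and 3618 at 60 uM, and 1718, 2012, 2015, 2255 and 2262 at 1000 uM. At 24 h the 60 and 1000 uM arrays overlapped, while both lay below DMSO, and at 48 h all 3 doses were apart. The differences from DMSO were -0.59 and -0.83 at 24 h and -0.94 and -1.50 at 48 h, each ± 0.08 (SE). The 24 h step from 60 to 1000 uM, -0.25 ± 0.08, was the smallest of the 10 genes. It was -0.14 with poly-A scaling and -0.28 to -0.21 without 1 array.

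Lurap1l, a relative of the LURAP1 adaptor, was the brightest of the 10. At 24 h its signal (1374176_at) was 20643, 20729, 20818, 21162 and 21699 in DMSO, 14688, 14956, 15142, 15546 and 15644 at 60 uM, and 4872, 5186, 5712, 5959 and 6174 at 1000 uM. At 48 h it was 21381, 22181, 24069, 24175 and 25266 in DMSO, 13919, 15142, 16007, 16569 and 16643 at 60 uM, and 4302, 4675, 4697, 5377 and 5799 at 1000 uM. The doses were fully apart at both times. Its difference from DMSO was -0.47 at 60 uM and -1.92 at 1000 uM at 24 h, and -0.58 and -2.24 at 48 h, each ± 0.07 (SE), so that most of its fall came between 60 and 1000 uM.

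Hao2, which oxidises long-chain 2-hydroxy acids in the peroxisome, was lower by nearly the same amount at both times at 1000 uM. The 24 h arrays (1387139_at) read 2933, 2956, 3126, 3237 and 3254 in DMSO, 1359, 1423, 1784, 1798 and 2086 at 60 uM, and 612, 654, 681, 685 and 842 at 1000 uM. The 48 h arrays read 3470.4, 3610.5, 3898, 4089 and 4468 in DMSO, 2144, 2432, 2478, 2515 and 2828 at 60 uM, and 548, 685, 947, 1021 and 1116 at 1000 uM. No arrays of different doses overlapped within a time. The differences from DMSO were -0.89 and -2.17 at 24 h and -0.66 and -2.22 at 48 h, each ± 0.14 (SE), which at 1000 uM are signals 4.49-fold and 4.66-fold lower.

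Rab11fip5, an effector through which Rab11 sorts recycling membrane, was lower at 60 uM and lower again at 1000 uM. Its signals after 24 h (1371468_at) were 4105, 4376, 4777, 4883 and 4941 in DMSO, 2291, 2346, 2455, 2612 and 2947 at 60 uM, and 1447, 1493, 1620.5, 1622 and 1768 at 1000 uM. Its signals after 48 h were 3506, 3839.5, 5181, 5585 and 5742 in DMSO, 2149.8, 2347, 2399, 2551 and 2641 at 60 uM, and 1236, 1327, 1329, 1523 and 1586 at 1000 uM. Again no arrays of different doses overlapped within a time, though the DMSO arrays at 48 h were widely spread, at 4771 ± 1029.8 (mean ± SD). The differences were -0.87 and -1.54 at 24 h and -0.96 and -1.75 at 48 h, each ± 0.11 (SE).

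Abca8a and, on its brighter probe set, Fam149a were lower mostly at the high dose. For Abca8a (1390783_at) the signal at 24 h was 1169.9, 1313, 1480.0, 1488 and 1849 in DMSO, 871, 926, 1002, 1162 and 1478 at 60 uM, and 198, 211, 365, 439 and 536 at 1000 uM. The 48 h arrays read 1482, 1817, 2128, 2162 and 2437 in DMSO, 1432, 1473, 1645, 1803 and 1877 at 60 uM, and 347, 354, 410, 482 and 765 at 1000 uM. At both times the 60 uM arrays overlapped DMSO, while the 1000 uM arrays lay below both. The differences were -0.43 and -2.15 at 24 h and -0.27 and -2.13 at 48 h, each ± 0.22 (SE), and those at 60 uM did not pass.

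Fam149a can be compared between 2 probe sets. On the brighter one (1385334_at) the signal at 24 h was 1056, 1148, 1181, 1308 and 1374 in DMSO, 777, 911, 916, 957 and 995 at 60 uM, and 202, 344, 349, 363 and 382 at 1000 uM. Its signals after 48 h were 1029, 1089.7, 1264, 1297 and 1451 in DMSO, 649, 909, 930, 1106 and 1165 at 60 uM, and 316, 350, 374, 407 and 475 at 1000 uM. The 1000 uM arrays were below all others, and 60 uM overlapped DMSO at 48 h only. The differences were -0.41 and -1.92 at 24 h and -0.38 and -1.68 at 48 h, each ± 0.16 (SE), with those at 60 uM not passing.
The dimmer probe set of Fam149a (1393906_at) gave the same direction in all 4 comparisons but a smaller difference at 1000 uM, -0.93 at 24 h and -0.86 at 48 h, each ± 0.27 (SE). At 60 uM it gave -0.26 at 24 h and -0.64 at 48 h, each ± 0.27 (SE), and these did not pass. On it the step from 60 to 1000 uM was -0.67 and -0.21 and did not pass, where the brighter probe set gave -1.51 and -1.29. Its signal at 48 h was 528, 579, 608, 671 and 738 in DMSO, 331, 333, 357, 407 and 623 at 60 uM, and 144, 396, 406, 421 and 487 at 1000 uM, with 1 high array at 60 uM and 1 low array at 1000 uM.

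The 3 dimmest genes had lower fitted means at 1000 uM than in DMSO, with estimates closer to 0 at 48 h than at 24 h, although their errors are wide. Slc17a2, of the SLC17 family of organic anion transporters, had a signal (1386274_at) at 24 h of 367, 411, 483, 530 and 563 in DMSO, 281, 285, 427, 560 and 593 at 60 uM, and 58.3, 60.9, 132, 170 and 258 at 1000 uM. The arrays after 48 h read 383, 441, 581, 683 and 756 in DMSO, 404, 540, 545, 606 and 652 at 60 uM, and 363, 400, 401, 421 and 442 at 1000 uM. At 24 h every 1000 uM array lay below both other groups, and at 48 h they overlapped DMSO and 60 uM. The differences were -0.19 and -2.01 at 24 h and -0.02 and -0.45 at 48 h, each ± 0.30 (SE), and only that at 1000 uM and 24 h passed.

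Phf19, a Polycomb-like protein, had widely spread arrays. After 24 h the arrays (1374354_at) read 273, 506, 554, 689 and 759 in DMSO, 243, 422, 467, 469 and 530 at 60 uM, and 91.5, 97.6, 109, 196 and 267 at 1000 uM. After 48 h they read 260, 280, 322, 423 and 585 in DMSO, 380, 392, 416, 491 and 495 at 60 uM, and 88.3, 132, 206, 345 and 388 at 1000 uM. The lowest DMSO array and the highest 1000 uM array at 24 h were nearly equal, and at 48 h the groups overlapped. The differences were -0.35 and -1.92 at 24 h and 0.28 and -0.83 at 48 h, each ± 0.35 (SE). That at 1000 uM and 48 h ranged from -1.07 to -0.54 when 1 array was left out. Its 48 h step from 60 to 1000 uM was -1.11 ± 0.35, and -1.35 to -0.81 without 1 array.

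Map2k6, the upstream kinase of p38, differed from DMSO at 60 uM by less than the standard error. The 24 h arrays (1387809_at) read 269, 359, 444, 517 and 522 in DMSO, 300, 417, 455, 459 and 518 at 60 uM, and 43.9, 75.3, 92.3, 149 and 276 at 1000 uM. The 48 h arrays read 443, 463, 483, 619 and 670 in DMSO, 419, 511, 536, 663 and 676 at 60 uM, and 108, 124, 296, 500 and 530 at 1000 uM. At 1000 uM 4 of 5 arrays lay below every DMSO array at 24 h and 3 of 5 at 48 h, and 1 array at each time was under its background floor. The differences were 0.05 and -1.97 at 24 h and 0.06 and -1.06 at 48 h, each ± 0.39 (SE), so that the 95% intervals at 60 uM, -0.74 to 0.83 and -0.72 to 0.85, are wide. The 48 h difference at 1000 uM ranged from -1.32 to -0.75 when 1 array was left out and was -0.91 with poly-A scaling. The 48 h step from 60 to 1000 uM was -1.12 ± 0.39, and -1.39 to -0.81 without 1 array.

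The share of the 1000 uM difference already present at 60 uM, both on the log2 scale, orders the genes by dose shape. At 24 h it was 70.3% ± 8.4 (SE) for Gpc4, 56.6% ± 6.0 for Rab11fip5 and 55.5% ± 5.8 for Npy. It was 41.2% ± 5.5 for Hao2, 24.4% ± 3.1 for Lurap1l, 21.5% ± 7.4 for Fam149a and 20.2% ± 9.4 for Abca8a. Neighbours in this order lie within about 2 standard errors of each other except Hao2 and Lurap1l. For Slc17a2 (9.3% ± 14.1) and Map2k6 (-2.3% ± 19.8) the errors include 0, and for Phf19 (18.1% ± 16.8) the error is nearly as large as the share. At 48 h the order was Npy with 65.0% ± 3.0, Gpc4 with 62.9% ± 4.6 and Rab11fip5 with 54.7% ± 5.3. Then came Hao2 with 29.5% ± 5.5, Lurap1l with 25.9% ± 2.7, Fam149a with 22.8% ± 8.5 and Abca8a with 12.8% ± 9.8. For Slc17a2 (4.9% ± 65.0), Map2k6 (-6.1% ± 37.5) and Phf19 (-33.0% ± 50.5) the error at 48 h was larger than the share. The shares of Fam149a are from its brighter probe set. On the dimmer one the 48 h differences were -0.64 at 60 uM and -0.86 at 1000 uM, so its place in the order is uncertain. Directly against 60 uM, 10 of the 10 genes passed as lower at 1000 uM at 24 h and 9 at 48 h, where 12.8% and 18.5% of all genes did. Slc17a2 at 48 h lay below 0 as well, at -0.42 ± 0.30, but did not pass.

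The change with time in DMSO was not among the contrasts that chose the genes, although its arrays are their controls, and it was tested with limma over all probe sets. Only Gpc4 changed: it fell by 0.97 ± 0.08 (SE) on the log2 scale from 24 to 48 h (limma adjusted p = 1.03e-10), from 11331 ± 858 to 5795 ± 426 (mean ± SD, n = 5), and all 5 arrays at 48 h were below all 5 at 24 h. The fall of 1 of 10 genes stands beside 3.75% of all genes lower and 5.10% higher. The other 9 did not pass. Abca8a differed by 0.45 ± 0.22 (95% interval 0.0015 to 0.91, limma adjusted p = 0.269), Hao2 by 0.33 ± 0.14 (0.05 to 0.61, limma adjusted p = 0.169) and Lurap1l by 0.15 ± 0.07 (0.02 to 0.29, limma adjusted p = 0.190). Npy, whose level at both doses was lower at 48 h, differed by 0.12 ± 0.08 in DMSO (-0.05 to 0.29, limma adjusted p = 0.472). The intervals for Phf19 (-1.27 to 0.16), Map2k6 (-0.42 to 1.15) and Slc17a2 (-0.36 to 0.85) allow changes of 2-fold or nearly so. With poly-A scaling, Hao2 (0.50) and Lurap1l (0.32) passed as higher.

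**Figure D3:**
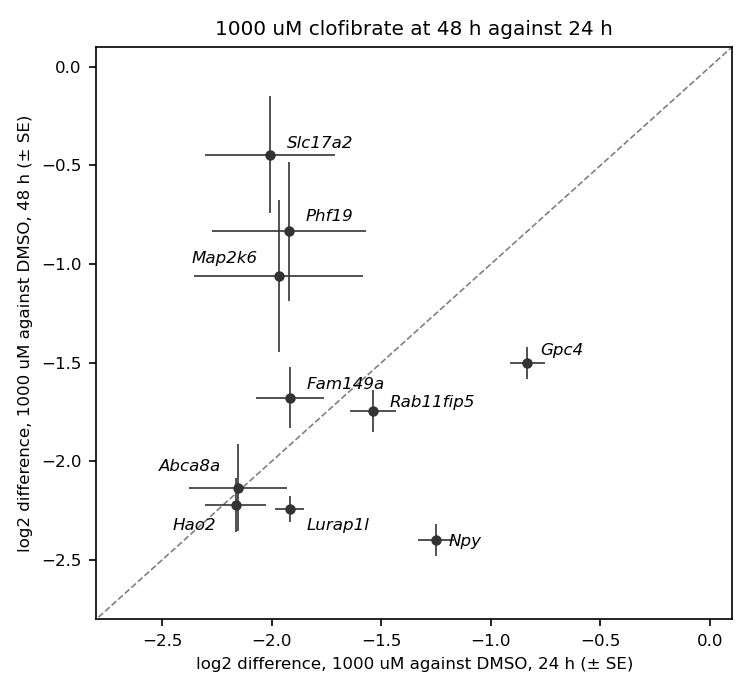
Log2 difference of 1000 uM from DMSO at 48 h (vertical) against 24 h (horizontal) for the 10 genes, with standard errors; on the dashed line the times are equal. Npy, Gpc4 and Lurap1l lie furthest below the line, and Slc17a2, Phf19 and Map2k6 furthest above it. Rab11fip5, Fam149a, Hao2 and Abca8a lie nearer to it.

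With time the difference from DMSO grew for some of the genes and shrank for others. The values share arrays with the contrasts that chose the genes and are descriptions. At 1000 uM the difference from DMSO was larger at 48 h for Npy, by -1.15 ± 0.12 (SE), Gpc4, by -0.67 ± 0.11, and Lurap1l, by -0.32 ± 0.09, and smaller for Slc17a2, by 1.56 ± 0.42. As a background, 5.54% of all genes passed as lower and 5.27% as higher in this contrast. Phf19 (1.09 ± 0.50) and Map2k6 (0.91 ± 0.54) lay on the side of Slc17a2 within about 2 standard errors of 0, and Hao2 (-0.06 ± 0.19), Abca8a (0.02 ± 0.31), Rab11fip5 (-0.21 ± 0.15) and Fam149a (0.24 ± 0.22) were near 0. At 60 uM the value for Npy was -0.86 ± 0.12, where 0.0847% of all genes passed as lower. Without 1 array the 1000 uM value ranged from -0.38 to -0.27 for Lurap1l and from 1.32 to 1.85 for Slc17a2.

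Within a dose, Npy and Gpc4 went down from 24 to 48 h at both 60 uM (-0.74 and -1.33) and 1000 uM (-1.02 and -1.64), each ± 0.08 (SE). Hao2 went up at 60 uM, by 0.57 ± 0.14, and Slc17a2 (1.81 ± 0.30) and Map2k6 (1.28 ± 0.39) went up at 1000 uM. The shares of all genes passing as lower and higher were 5.06% and 5.65% at 60 uM and 13.7% and 11.8% at 1000 uM. For Map2k6 it ranged from 0.96 to 1.63 without 1 array. Gpc4 also fell in DMSO, and at 48 h its signal at 60 uM was 3021 ± 367 against 11331 ± 858 in DMSO at 24 h (mean ± SD).

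For each member the named gene with the most similar course was found by the root-mean-square distance between their 5 log2 differences from the DMSO 24 h mean, over 10617 candidates. The closest match was between Lurap1l and LOC106182250, with a distance of 0.145, and the same gene was nearest to Fam149a, with 0.185. Map2k6 was nearest to Cyp7a1, which opens the classic route from cholesterol to bile acids, with 0.161, and that gene differed from DMSO by -1.78 and -1.21 at 1000 uM at 24 and 48 h. Rab11fip5 was nearest to Acmsd, an enzyme of tryptophan breakdown, with 0.191, and Phf19 to Klrb1a, a receptor known from natural killer cells, with 0.191. Hao2 was nearest to Vim, the intermediate filament vimentin, with 0.246, and Abca8a to Gas6, a ligand of TAM receptor kinases, with 0.248. Distances were larger for Slc17a2 and Cc2d2a, a cilium gene, at 0.273, for Npy and S100a6, a calcium-binding protein, at 0.290, and for Gpc4 and Cyp1a2 at 0.342. For Map2k6, Phf19 and Slc17a2 the distance is smaller than the standard error of their own differences (0.39, 0.35 and 0.30). Which gene is nearest to these members is therefore uncertain. For Abca8a and Fam149a the distance, 0.248 and 0.185, is little larger than the standard error, 0.22 and 0.16, so their nearest gene is uncertain too. Cyp1a2, a cytochrome P450, came down by 1.11 from 24 to 48 h in DMSO, as Gpc4 did by 0.97, but its 1000 uM differences of -0.36 and -0.97 were smaller than those of Gpc4.

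Other genes of the same pathways and families were taken from 10 lists, tested with limma over all probe sets, and each gene named below that rose or fell has an adjusted p under 0.05. Over all named genes, 13.4% were higher and 20.5% lower at 1000 uM at 24 h, and 17.1% and 26.8% at 48 h.

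Of 4 other measured SLC17 transporters, 1 fell at 1000 uM at 24 h and 4 at 48 h, with list medians of -0.15 and -0.69, where those of all genes were -0.06 and -0.06. Slc17a3, a urate transporter, differed by 0.02 ± 0.08 (SE) at 24 h and fell by 0.70 ± 0.08 at 48 h, so its effect was larger at 48 h by 0.71 ± 0.12 (limma adjusted p = 8.22e-05). Slc17a1 went from -0.04 ± 0.06 to -0.48 ± 0.06 and Slc17a4 from -0.62 ± 0.08 to -1.07 ± 0.08, and these 2 also differed between the times, by -0.43 and -0.44, that of Slc17a4 not with poly-A scaling (-0.53). Slc17a5, the lysosomal sialic acid transporter, was at -0.25 ± 0.11 and -0.67 ± 0.11. In all 4 the difference lay further below 0 at 48 h, for Slc17a5 by -0.42 ± 0.16, which did not pass, while that of Slc17a2 lay closer to 0.

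Of 6 measured ABC transporters of subfamily A, 3 fell and 1 rose at 1000 uM at 24 h, and 2 fell and 1 rose at 48 h, with medians of -0.40 and -0.13. Abca2 fell by 1.36 ± 0.31 (SE) and 1.43 ± 0.31, and Abca1, which loads cholesterol onto apolipoprotein A-I, by 0.57 ± 0.09 and 0.44 ± 0.09. Abca4 rose by 0.59 ± 0.12 and 1.50 ± 0.12. Abca8, whose symbol is nearest to that of Abca8a, fell by 0.47 ± 0.10 at 24 h and was at 0.09 ± 0.10 at 48 h, and the difference between the times was 0.55 ± 0.13 (limma adjusted p = 0.00657, not passing with poly-A scaling at 0.47). With poly-A scaling Abca8 at 24 h (-0.23) and Abca1 at 48 h (-0.29) no longer passed, so that 2 of the 6 fell and 2 rose at 24 h and 1 fell at 48 h.

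Of 13 measured genes of heparan sulfate proteoglycans and their synthesis, 7 fell and 1 rose at 1000 uM at 24 h, and 5 fell and 2 rose at 48 h, with medians of -0.26 and -0.24. Sdc4, the proteoglycan syndecan-4, fell by 0.88 ± 0.05 (SE) and 1.17 ± 0.05. Ext1, which polymerises the chain, fell by 0.74 ± 0.08 and 0.66 ± 0.08, and the sulfotransferase Hs2st1 by 0.26 ± 0.08 and 0.59 ± 0.08, at 24 h not with poly-A scaling (-0.03) or median centring (-0.20). Hs6st1 fell by 0.76 ± 0.18 at 24 h and was at -0.40 ± 0.18 at 48 h. At 60 uM limma called 4 of the 13 lower at 24 h and 3 at 48 h, beside 3.76% and 5.79% of all genes. With poly-A scaling it called 0 at either time (0 and 2 at an unadjusted p under 0.05), and with median centring 0 at 24 h (3 unadjusted). In DMSO from 24 to 48 h 1 fell and 3 rose, among them Hs2st1 by 0.31 ± 0.08, where Gpc4 fell. With poly-A scaling 4 of the 13 fell at 1000 uM at 24 h.

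Of 10 measured peroxisomal oxidases and glyoxylate enzymes, 5 fell and 4 rose at 1000 uM at 24 h, and 2 fell and 6 rose at 48 h, with medians of -0.15 and 0.28. Hao1, the glycolate oxidase of liver and the closest relative of Hao2, fell by 1.01 ± 0.10 (SE) at 24 h and did not pass at 48 h (-0.19 ± 0.10), a difference between the times of 0.82 ± 0.14 (limma adjusted p = 9.4e-05). Agxt, which turns glyoxylate into glycine, rose by 0.90 ± 0.07 and 0.85 ± 0.07. Paox, a polyamine oxidase, fell by 0.86 ± 0.12 and 0.55 ± 0.12, and Hoga1, a mitochondrial enzyme of hydroxyproline breakdown, by 0.94 ± 0.06 and 0.81 ± 0.06.

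Of 15 measured genes of the p38 pathway, 4 fell and 3 rose at 1000 uM at 24 h, and 3 fell and 1 rose at 48 h, with medians of -0.15 and -0.01. Mapkapk2, a kinase that p38 activates, fell by 0.45 ± 0.11 (SE) and 0.75 ± 0.11, and Dusp1, a phosphatase that switches p38 off, by 0.32 ± 0.05 and 0.54 ± 0.05. Gadd45a rose by 0.60 ± 0.08 at 24 h and was at -0.10 ± 0.08 at 48 h, and Gadd45g rose by 0.56 ± 0.13 and 0.37 ± 0.13, at 48 h not without replicate 1 (0.34), 2 (0.32) or 3 (0.35) of 1000 uM or replicate 4 (0.30) or 5 (0.26) of DMSO. With poly-A scaling limma called 0 of the 15 lower at 24 h (0 also at an unadjusted p under 0.05) and 4 higher, Mapkapk2 being at -0.22 and Dusp1 at -0.09, and 2 lower and 4 higher at 48 h.

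Of 8 measured genes of Polycomb repressive complex 2, 2 rose and 1 fell at 1000 uM at 24 h, and 2 rose and 2 fell at 48 h, with medians of 0.14 and 0.06. The methyltransferase Ezh1 fell by 0.33 ± 0.08 (SE) and 0.45 ± 0.08. The core subunit Suz12 rose by 0.30 ± 0.11 and 0.35 ± 0.11, the histone-binding Rbbp7 was at 0.00 ± 0.04 and then fell by 0.41 ± 0.04, and Mtf2, a Polycomb-like protein as Phf19 is, was at 0.37 ± 0.18 and rose by 0.65 ± 0.18 at 48 h. With poly-A scaling limma called 7 of the 8 higher and 0 lower at 24 h (0 also at an unadjusted p under 0.05), Ezh1 being at -0.09, and 2 higher and 1 lower at 48 h, where Ezh1 at -0.30 did not pass. The rise of Suz12 at 24 h did not pass without replicate 1 (0.29), 4 (0.28) or 5 (0.26) of DMSO or replicate 3 (0.28) or 5 (0.24) of 1000 uM.

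Of 9 measured genes of Rab11 recycling endosomes, 3 fell and 1 rose at 1000 uM at 24 h, and 2 fell and 1 rose at 48 h, with medians of -0.04 and 0.01. The motor Myo5b, which binds Rab11, rose by 1.14 ± 0.08 (SE) and 1.55 ± 0.08, and by 0.43 ± 0.08 at 60 uM at 48 h. Rab4a fell by 0.38 ± 0.10 and 0.44 ± 0.10, not passing with poly-A scaling (-0.15 and -0.29). Ehd1 fell by 0.20 ± 0.07 and 0.44 ± 0.07 and Evi5 by 0.21 ± 0.07 at 24 h, but with poly-A scaling both stood above 0 at 24 h, at 0.03 and 0.03, and limma called 0 of the 9 lower (0 also at an unadjusted p under 0.05) and 3 higher. At 48 h it then called 1 lower and 2 higher. With median centring Ehd1 (-0.14) and Evi5 (-0.14) also did not pass at 24 h. The 24 h fall of Ehd1 did not pass without replicate 1 (-0.20), 2 (-0.17) or 4 (-0.16) of DMSO or replicate 1 (-0.19), 3 (-0.20) or 5 (-0.16) of 1000 uM, and that of Evi5 not without replicate 5 of DMSO (-0.18).

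Of 4 measured genes of neuropeptide Y processing and reception, 2 fell at 1000 uM at 24 h, and 2 fell and 1 rose at 48 h, with medians of -0.32 and -0.27. The amidating enzyme Pam fell by 0.41 ± 0.10 (SE) and 0.56 ± 0.10, and Dpp4, which trims the peptide, by 0.39 ± 0.06 and 0.56 ± 0.06. The carboxypeptidase Cpe fell in DMSO from 24 to 48 h by 1.85 ± 0.31 and rose by 0.78 ± 0.31 at 1000 uM at 48 h, with an adjusted p of 0.0486 by limma that left the threshold under 26 of 39 alternatives and a value of 0.33 without the DMSO array of replicate 1. The receptor Npy4r was at 0.08 ± 0.26 and 0.02 ± 0.26. With poly-A scaling Pam (-0.18) and Dpp4 (-0.16) did not pass by limma at 24 h, where 0 of the 4 were then lower, also at an unadjusted p under 0.05.

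Of 4 measured partners of the LURAP1 and MRCK module, which moves actin, 1 fell at 1000 uM at 24 h and 3 at 48 h, with medians of -0.20 and -0.27. The kinase Cdc42bpa was at -0.35 ± 0.23 (SE) and fell by 1.24 ± 0.23 at 48 h. Cdc42bpb was at -0.23 ± 0.09 and fell by 0.25 ± 0.09 at 48 h, not passing without replicate 1 (-0.20), 2 (-0.23) or 3 (-0.24) of DMSO or replicate 1 (-0.25), 2 (-0.24) or 4 (-0.24) of 1000 uM. Myo18a was at -0.11 ± 0.17 and 0.08 ± 0.17, and Cdc42 fell by 0.18 ± 0.05 and 0.29 ± 0.05 but was at 0.05 and -0.14 with poly-A scaling and at -0.11 at 24 h with median centring, which did not pass. With poly-A scaling limma called 0 of the 4 lower at 24 h, also at an unadjusted p under 0.05, and 1 at 48 h, Cdc42bpb being at -0.10. Fam149b1, the only other gene of the Fam149 family, did not pass, at -0.13 ± 0.07 and -0.02 ± 0.07.

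**Figure D4:**
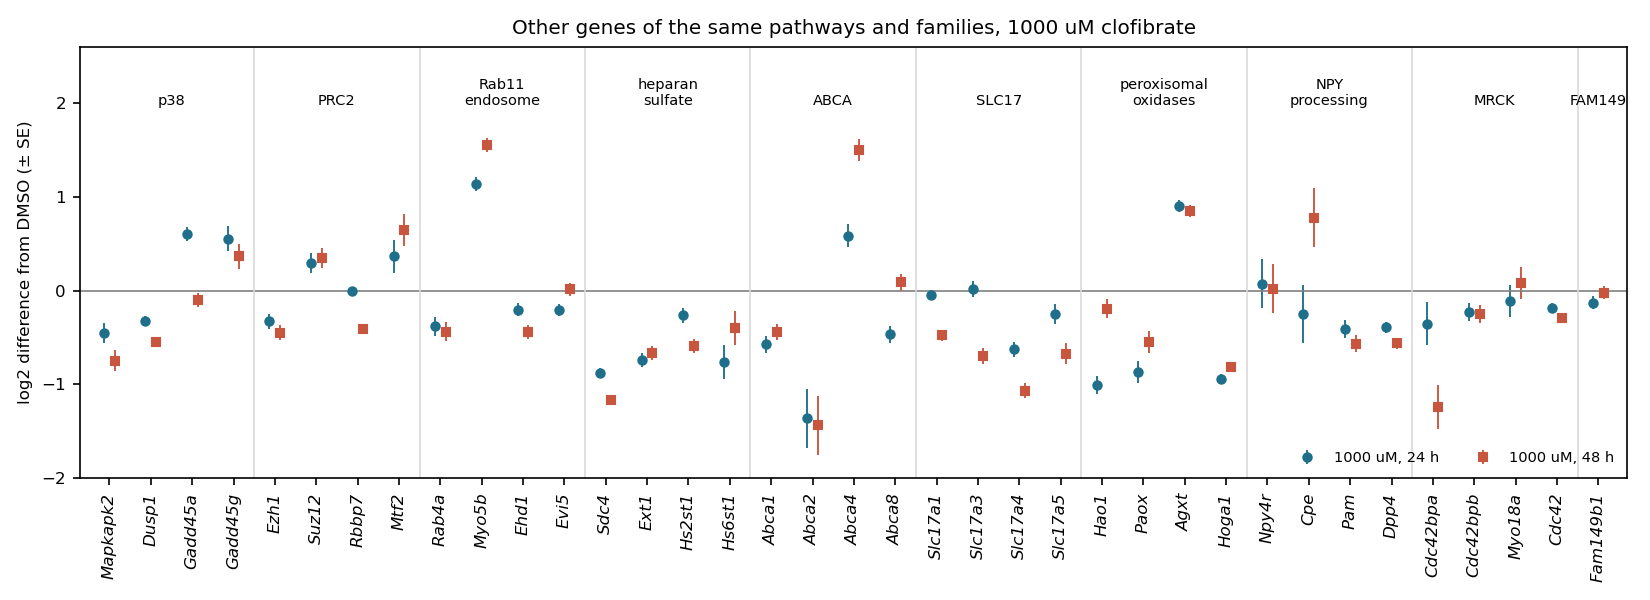
Log2 difference of 1000 uM clofibrate from DMSO with its standard error at 24 h (blue circles) and 48 h (red squares) for the genes named from the 10 lists. Myo5b and Abca4 stand highest, and the 4 SLC17 transporters are each lower at 48 h than at 24 h.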

How the data were processed

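RNA from 30 rat hepatocyte cultures was measured on Affymetrix rat arrays, 5 per group. The deposited table holds linear signal intensity per probe set, made with MAS5 per the submitters' processing notes (version not given in the sources used here); the 2% trimmed means of the 30 arrays lie between 1500.59 and 1500.67, so the authors scaled all arrays alike. From the deposited intensity the log2 was taken with no constant added. Of 31042 probe sets that are not controls, the 18625 with a mean log2 above the 40th percentile (8.00, a signal of 255) were kept. One limma 3.58.1 model (R 4.3.3) with a mean per group over all 30 arrays and an intensity trend gave 11 comparisons, with Benjamini-Hochberg adjustment over all probe sets kept; "passed" means an adjusted p under 0.05. Each of 10627 named genes is read from its brightest probe set. The fit was tested on simulated data. Python 3.11.15, numpy 2.4.6, pandas 2.3.3 and matplotlib 3.10.9 made summaries and plots.

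The 10 genes and the 10 gene lists were chosen with earlier results of these data known. Genes named are the 10 with any further probe set, the nearest gene of each by root-mean-square distance over 5 differences, and up to 4 genes per list, those that passed at 1000 uM first and then by size of the difference. The wells have no labelled animal, and p-values measure the spread between cultures. Their number, 5 a group, limits the precision. Alternatives changed the filter, the scaling, the constant, the variance prior, the array weights, the arrays fitted and the probe set, and 1 chosen after the data were seen added runs of array numbers as a block. Promoters come from RefSeq, build GRCr8, and the array's probe names from the platform annotation.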

Additional observations from a re-analysis of the deposited data

Results flagged for a closer look

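In 66 groups of 5 arrays, 3 had a signal set far apart from the other 4 by Dixon's ratio, where chance gives about 1 in 20, and all 3 belong to Fam149a. On its brighter probe set, replicate 5 of 1000 uM at 24 h had a signal of 202, below the others at 344 to 382. On its dimmer probe set, replicate 4 of 60 uM at 48 h had 623, above 331 to 407, and replicate 1 of 1000 uM at 48 h had 144, below 396 to 487.

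The effect of clofibrate differed between 48 h and 24 h for several genes. Of the 10 chosen genes, those past the adjusted p threshold of limma's contrast between the times are given first. They were chosen on contrasts that share these arrays, so no p-value is given and the values support nothing. The log2 difference of effects was -0.86 for Npy at 60 uM, and at 1000 uM it was -1.15 for Npy, -0.67 for Gpc4, -0.32 for Lurap1l and 1.56 for Slc17a2.

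Among the genes of the lists, limma's interaction contrast passed at 1000 uM in both directions. The difference from DMSO was lower at 48 h for Slc17a3 by -0.71 (limma adjusted p = 8.22e-05), for Gadd45a by -0.70 (adjusted p = 2.47e-05), for Slc17a4 by -0.44 (adjusted p = 0.0128), for Slc17a1 by -0.43 (adjusted p = 0.000383), for Rbbp7 by -0.41 (adjusted p = 1.14e-06) and for Sdc4 by -0.29 (adjusted p = 0.00424). It was higher at 48 h for Abca4 by 0.91 (limma adjusted p = 0.000325), for Hao1 by 0.82 (adjusted p = 9.4e-05), for Abca8 by 0.55 (adjusted p = 0.00657) and for Myo5b by 0.42 (adjusted p = 0.0103). With poly-A scaling those of Abca8 (0.47), Myo5b (0.33), Sdc4 (-0.38) and Slc17a4 (-0.53) no longer passed, and that of Myo5b also not with median centring (0.36).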

How the results depend on the processing

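The count of the 10 genes lower by the test over 40 alternatives was 5 or 6 at 24 h and 5 in each at 48 h for 60 uM, and 7 to 10 at 24 h and 7 to 9 at 48 h for 1000 uM. The count of 7 at 24 h comes from the filter at the 60th percentile, which only 7 of the 10 genes pass. With that filter 0 genes were higher from 24 to 48 h at 1000 uM (2 with the filter used) and 0 had a higher 1000 uM effect at 48 h (1). With poly-A scaling 2 genes rose from 24 to 48 h in DMSO (0 as deposited) and 0 had a higher 1000 uM effect at 48 h; the cause was not tested. With only the groups compared in the fit, the counts higher at 48 h were 1 in DMSO, 2 at 60 uM and 1 at 1000 uM. Leaving out 1 array gave 1 to 2 higher at 60 uM and 1 to 3 at 1000 uM. The counts over all probe sets moved with the alternatives too. Those higher from 24 to 48 h in DMSO were 438 to 1630 (722 with the settings used). At 60 uM they were 468 to 1043 (887) and at 1000 uM 1411 to 1989 (1845). Those with a higher 1000 uM effect at 48 h were 117 to 825 (776). Of results that were tested, directions turned for 5: Fam149a in DMSO with time, 0.01, was -0.00103 with quantile normalization, -0.00629 with array weights and -0.053 to 0.071 without 1 array; Rab11fip5, 0.02, was -0.052 to 0.13 without 1 array; and at 1000 uM and 24 h Ehd1 (-0.20, then 0.032), Evi5 (-0.21, then 0.028) and Cdc42 (-0.18, then 0.054), which had passed, were above 0 with poly-A scaling. Untested differences of the 10 genes that lay between -0.06 and 0.07 also changed sign, such as Fam149a from 24 to 48 h at 60 uM, from 0.04 to -0.27 on its dimmer probe set. The labels give no replicate number that groups share, but each run of 6 successive array numbers in the titles holds 1 array of every group. With these runs as a replicate block, an alternative chosen after the data were seen, the genes lower at 1000 uM and 48 h were 9 in place of 8, Phf19 being added, the other counts of the 10 genes did not change, and Cpe (0.96 and 0.78 at 60 and 1000 uM at 48 h) no longer passed. Deviations from the group means correlated at a median of 0.0056 within a run and -0.0027 between runs. With 5 runs, 11 of 30 arrays were closest to their own run, and whether this is more than chance gives was not tested. Dim probe sets limit Slc17a2, Phf19 and Map2k6, whose signals at 1000 uM came down to 58.3, 88.3 and 43.9, where the background floor averaged 52.1 to 79.1 over the arrays of a group.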

Other observations

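The genes next to the 10 on the chromosomes were looked up after the values had been seen, 3 protein-coding genes on each side in RefSeq's order, which gave 57 neighbours with 22 measured. At 1000 uM 10 of the 22 passed as lower by limma at 24 h, with a median of -0.18, and 8 were lower and 2 higher at 48 h, with a median of -0.20, where 20.5% and 26.8% of all genes passed as lower. These counts and the values below are as deposited, and the counts with poly-A scaling were not tested. Under it Abca8 at 24 h, -0.47 as deposited, was -0.23 and did not pass, while the all-probe-set median, -0.05 as deposited, was 0.18. Abca8, Slc17a4, Slc17a1 and Slc17a3 are also genes of the lists above, so the neighbours are not a separate set. Klkb1, plasma prekallikrein, which lies near Fam149a, fell by 2.62 ± 0.14 (SE) at 24 h and 2.48 ± 0.14 at 48 h by limma, while Cyp4v3, which lies between them, was at -0.01 ± 0.04 and rose by 0.22 ± 0.04 at 48 h. Near Npy, the scaffold gene Pals2 fell by 0.41 ± 0.06 and 0.60 ± 0.06. Slc17a2 stands in a row with Slc17a4, Slc17a1 and Slc17a3 on chromosome 17, and Abca8a and Map2k6 lie on chromosome 10 with further ABC transporter genes between them, of which Abca5 was at -0.34 and -0.25 and did not pass. Neighbours that were not above the filter have no value here.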
